A study of Mus musculus with 43 samples.

Results

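The 42 genes described here encode matrix glycoproteins, proteoglycans and basement membrane proteins, the non-collagen part of the matrix that fibroblasts lay down. They were taken by symbol from a list of 42 names, whatever their values, out of 26218 symbols measured in the series, and each name stood on 1 line of both deposited tables. They fall into 4 groups by role. The first is fibrillins, elastin and microfibril proteins with 16 genes, the second adhesive and matricellular glycoproteins with 11, the third small leucine-rich proteoglycans with the large proteoglycan versican, 6 in all, and the fourth basement membrane with 9.

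Polyadenylated RNA of mouse embryonic fibroblasts, called a cell line in the labels, was measured in 43 libraries. In the siRNA system, with 4 libraries a group, the groups were Son siRNA with tunicamycin, Son siRNA with DMSO, control siRNA with tunicamycin and control siRNA with DMSO. In the CRISPR activation (CRISPRa) system, with 3 libraries a group, they were Son sgRNA with tunicamycin, Son sgRNA with DMSO, control sgRNA with tunicamycin and control sgRNA with DMSO. The genotype label of the Son sgRNA libraries names Son overexpression. In the drug system, with 3 libraries a group, wild-type cells had 24 h of 3 µM nintedanib, 1 µM ponatinib, 3 µM proflavine hemisulfate, 1 µM pyrvinium pamoate or DMSO. Son is a nuclear speckle protein that acts in splicing, and tunicamycin blocks N-linked glycosylation and thereby stresses the endoplasmic reticulum. Nintedanib and ponatinib inhibit tyrosine kinases, proflavine is a DNA-intercalating acridine dye, and pyrvinium is an anthelmintic dye. The dose and time of tunicamycin, the strain and passage of the cells and the promoter behind the CRISPRa effector are not stated by the labels. Nor do these say whether libraries of a group came from separate cultures, so the p-values cover only the spread between these samples, which may be technical. Headers of the drug columns number the libraries as brep, without a statement of what was replicated.

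Connective tissue matrix is built on fibronectin fibrils and fibrillin microfibrils, on which elastin is laid with the help of fibulins, and latent TGF-beta binding proteins store the growth factor TGF-beta on these fibres. Small leucine-rich proteoglycans such as decorin coat collagen fibrils, while matricellular proteins such as thrombospondins and tenascin signal to cells more than they bear load. A basement membrane is a sheet in which laminin and collagen IV networks are joined by nidogens and perlecan. Fibroblasts secrete all 3 kinds of matrix, and nearly all of these proteins are glycosylated in the endoplasmic reticulum and the Golgi.

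The siRNA and CRISPRa libraries were deposited as FPKM and the drug libraries as TPM, units that scale fragments to transcript length and to the size of the library. Summed values ran from 393033 to 423289 FPKM per siRNA library, from 381216 to 499056 FPKM per CRISPRa library and from 952123 to 989105 TPM per drug library. Neither unit gives read counts, so the read depth is unknown. Son averaged 21.8 ± 0.970 FPKM with Son siRNA and 43.5 ± 0.979 FPKM with control siRNA in DMSO (SD, n = 4 each), and 15.4 ± 1.14 and 36.0 ± 0.908 FPKM in tunicamycin. The CRISPRa libraries labelled Son sgRNA showed no rise of Son as a group. In DMSO libraries A to C they had 51.9, 44.6 and 29.8 FPKM, against 46.4, 47.5 and 48.3 FPKM with control sgRNA. Library A was above every control library, and without library C the log2 change was 0.02 (limma adjusted p = 0.892). In tunicamycin the guide arms stood at 45.3, 35.0 and 42.4 FPKM with Son sgRNA, against 42.4, 41.2 and 43.7 FPKM with control sgRNA. They are therefore called the libraries labelled Son sgRNA throughout. Fibroblast markers such as Vim, S100a4 and Col1a1 were high in every group, while summed markers of endothelium, macrophages, muscle and glia each came to at most 9.86 in any library. Of the epithelial list, Krt19 alone made up most of the sum, which ran from 11.9 FPKM in the libraries labelled Son sgRNA in tunicamycin to 210.4 TPM in drug DMSO. One siRNA library, D of control siRNA with tunicamycin, stood apart in the values of some members, and results that rest on it are given without it as well. It was picked from those values, so calls gained without it are a description only.

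Members whose mean over a system reached 1 were tested, namely 29 of the 42 in the siRNA libraries, 31 in the CRISPRa libraries and 34 in the drug libraries. All 29 were tested in every system. The CRISPRa system added Lama4 and Ltbp2, and the drug system added Fbn2, Spon2, Mfap5, Fmod and Lama4. The members untested in every system were Efemp1, Eln, Lama2, Lum, Mfap2, Mfap4 and Postn. Elastin (Eln), the core of elastic fibres, was thus close to absent, at a mean of 0.0349 FPKM with control siRNA, 0.0389 FPKM with control sgRNA and 0.137 TPM in drug DMSO. Lumican (Lum), a corneal and dermal small proteoglycan, did not exceed a group mean of 0.0180 in any group. The highest group means of the others were 0.684 TPM for the adhesive protein periostin (Postn), with pyrvinium, 0.771 and 0.493 TPM for the microfibril genes Mfap2 and Mfap4, with ponatinib, and 0.227 and 0.136 TPM for the laminin chain Lama2 and the fibulin-related Efemp1, with nintedanib. Fmod reached the filter in the drug system only through its ponatinib libraries, Mfap5 only through its nintedanib libraries and Lama4 only with both drugs' libraries, so their rises there are a description and support no count. In the siRNA system Fbln5 reached it only through the tunicamycin libraries of both arms, so its rises there are also a description and support no count. The counts below cover the members that passed the filter.

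Among the measured members, levels differed widely between roles. In wild-type cells in DMSO the collagen-binding matricellular glycoprotein Sparc stood at 1659.9 ± 91.2 TPM, fibronectin (Fn1) at 784 ± 19.7 TPM and biglycan (Bgn), a small proteoglycan, at 555 ± 21.6 TPM (SD, n = 3). The fibulin Fbln2 (313 ± 7.52 TPM), the fibulin-related Efemp2 (255 ± 5.32 TPM) and the elastin interface glycoprotein Emilin1 (198 ± 3.77 TPM) led the elastic fibre genes. Of the basement membrane genes the laminin chain Lamb2 was highest, at 149.6 ± 4.13 TPM, with Lamc1 at 93.0 ± 0.851 TPM, the perlecan gene Hspg2 at 80.1 ± 3.73 TPM and nidogen 1 (Nid1) at 71.9 ± 2.38 TPM. The members' summed level made up 0.556 to 0.577% of all TPM per DMSO library.

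The control cells of the 2 systems in the FPKM table did not hold the same matrix. Bgn (chromosome X, 73483602 to 73495933, + strand, GRCm38) averaged 2.31 ± 0.136 FPKM with control sgRNA and 291 ± 13.2 FPKM with control siRNA, both in DMSO (SD, n = 3 and 4). Tenascin C (Tnc), a matricellular glycoprotein, averaged 20.6 ± 2.13 and 111 ± 7.57 FPKM, and fibrillin 1 (Fbn1), the main microfibril protein, 7.83 ± 0.646 and 28.7 ± 0.835 FPKM. The order was the opposite for the laminin chain Lama4, at 4.16 ± 0.242 FPKM with control sgRNA and 0.0651 ± 0.0111 FPKM with control siRNA, for Nid2 (12.01 ± 0.503 and 1.66 ± 0.0857 FPKM) and for Thbs2 (13.0 ± 1.19 and 3.20 ± 0.709 FPKM). None of these ranges overlapped. Xist, the X-inactivation RNA, averaged 0.00297 FPKM with control sgRNA and 27.8 FPKM with control siRNA. Cell source and system cannot be told apart, so no test was made between systems.

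**Figure D1:**
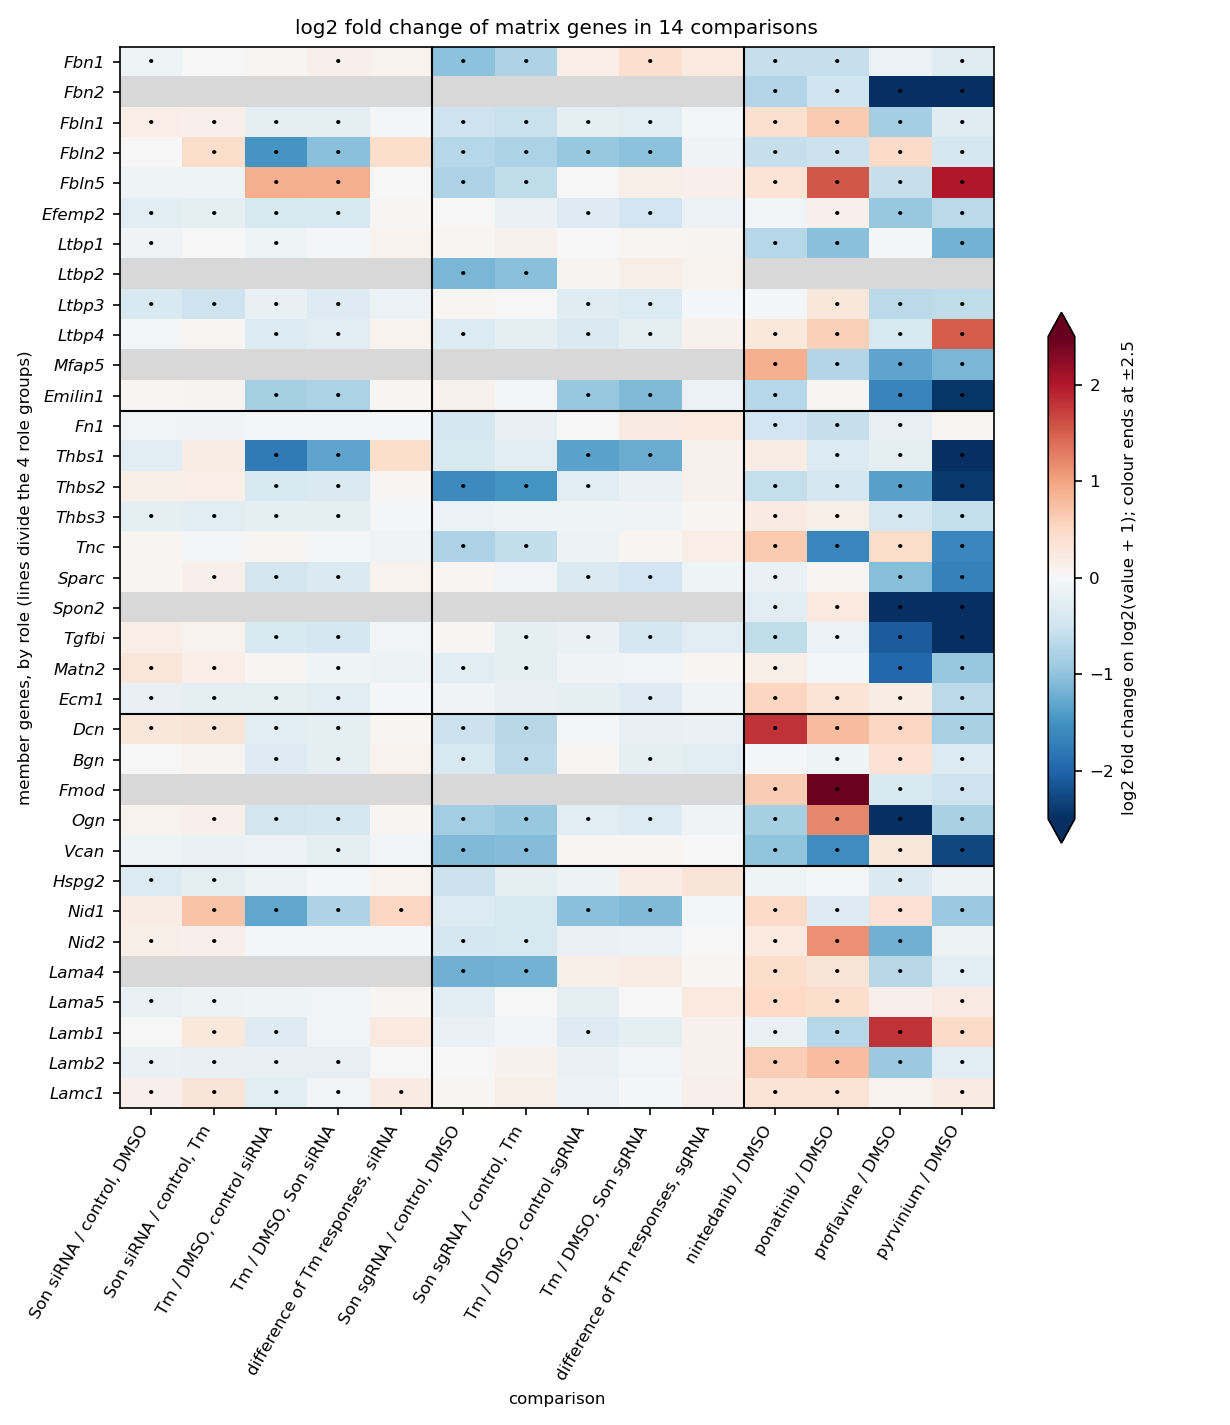
Log2 fold changes of the tested members (down the page, divided by role) in each of the 14 comparisons (across, divided by system), on the log2(value + 1) scale, with blue lower, red higher, colours ending at −2.5 and 2.5, dots for adjusted p under 0.05 and grey for members not tested. Blue fills most of the tunicamycin, Son sgRNA, proflavine and pyrvinium columns, while the Son siRNA and kinase inhibitor columns hold both colours.

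Tunicamycin lowered most of these genes in cells with control siRNA. Of 29 tested members 20 fell and 1 rose, where 42.4% of all 10883 tested genes fell, 26.6% rose and 69% were called in all. The 1 was Fbln5, whose rise supports no count, as given above. Called here and below means a Benjamini-Hochberg adjusted p under 0.05 in limma, taken over all tested genes. The median log2 fold change, on the log2(FPKM + 1) scale, was −0.22 over the members and −0.06 over all genes. Of all calls 38.5% were higher, but 48.7% under median-ratio scaling of the libraries and 50.4% once the trend of fold change with transcript length was removed. The members then split as 3 higher and 19 lower, and as 1 higher and 22 lower. By role, 7 of 9 fibrillin and microfibril genes, 6 of 9 adhesive glycoproteins, 3 of 4 proteoglycans and 4 of 7 basement membrane genes fell. In such bulk samples fewer cells of a type and less RNA per cell cannot be told apart.

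The largest fall was that of thrombospondin 1 (Thbs1; chromosome 2, 118111876 to 118127133, + strand, GRCm38), a matricellular protein that activates latent TGF-beta. It stood at 22.5, 18.6, 21.2 and 12.8 FPKM in tunicamycin libraries A to D, against 62.2, 66.9, 65.1 and 64.5 FPKM in DMSO, with control siRNA (log2 change −1.76 with SE 0.11, adjusted p = 5.06e-10). Every tunicamycin library lay below every DMSO library, and library D was the lowest. Fbln2 (chromosome 6, 91212455 to 91272540, + strand), which links fibrillin to other matrix proteins, stood at 51.0, 50.7, 52.4 and 35.9 FPKM in tunicamycin, against 125, 139.7, 128 and 137 FPKM in DMSO (log2 change −1.47 with SE 0.088, adjusted p = 2.43e-10). Nid1 (chromosome 13, 13437551 to 13512269, + strand), which bridges laminin and collagen IV, stood at 21.9, 23.2, 22.8 and 16.4 FPKM in tunicamycin, against 52.8, 51.9, 54.5 and 52.3 FPKM in DMSO (log2 change −1.30 with SE 0.073, adjusted p = 1.05e-10). The 3 genes shared the low value of library D, and without it their falls were −1.60, −1.35 and −1.19, each still called.

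Emilin1 (chromosome 5, 30913402 to 30921277, + strand) had 33.7, 29.5, 33.7 and 31.6 FPKM in tunicamycin libraries, against 56.6, 58.2, 56.9 and 58.9 FPKM in DMSO libraries, with control siRNA (log2 change −0.83 with SE 0.037, adjusted p = 5.75e-12), and library D did not stand apart for it. The small proteoglycan osteoglycin (Ogn) fell by less (−0.46), and so did Sparc (−0.45), at 351 ± 21.4 FPKM in tunicamycin and 479.8 ± 21.7 FPKM in DMSO (SD, n = 4 each). Fibronectin, at 460.2 ± 17.8 FPKM in tunicamycin and 469 ± 36.3 FPKM in DMSO, did not pass the test (log2 change −0.03 with SE 0.057, adjusted p = 0.707). The single member that stood higher was fibulin 5 (Fbln5; chromosome 12, 101746565 to 101819055, − strand), which tethers elastic fibres to cells. It had 2.33, 2.37, 2.22 and 3.07 FPKM in tunicamycin, against 0.875, 0.902, 0.725 and 0.938 FPKM in DMSO (log2 change 0.91). Every siRNA library in DMSO was below 1 FPKM for Fbln5. It passed the filter only through the tunicamycin libraries, so this rise is a description. The fibulin pair thus moved in opposite directions, and Fbln5 over Fbln2, a ratio of per-length levels, was 0.0551 ± 0.0204 in tunicamycin and 0.00649 ± 0.000584 in DMSO (SD, n = 4 each). Library D had the highest ratio, 0.0856, and the other tunicamycin libraries 0.0423 to 0.0468. The members' summed level made up 0.466 to 0.523% of all FPKM in tunicamycin libraries and 0.563 to 0.642% in DMSO libraries. Fibroblast markers fell in the same libraries, 7 of 7 tested, and their summed level ran from 1452 to 1849 FPKM in tunicamycin and from 2871 to 2984 FPKM in DMSO. Their part in the fall of the matrix genes was not tested.

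With Son siRNA, tunicamycin lowered 20 of 29 members and raised 2, where 41.1% of all genes fell, 26.1% rose and 67.2% were called. Of all calls 38.8% were higher, and 49.5% with the length trend removed, where 2 members rose and 18 fell. Thbs1 stood at 21.6, 21.2, 22.4 and 19.0 FPKM in tunicamycin, against 54.8, 53.4, 56.6 and 51.5 FPKM in DMSO, both with Son siRNA (log2 change −1.32 with SE 0.11, adjusted p = 2.75e-08). Fbln2 (−1.04), Emilin1 (−0.79) and Nid1 (−0.77) followed. Fbln5 stood higher, with 2.497, 2.02, 2.14 and 2.28 FPKM in tunicamycin, against 0.761, 0.627, 0.726 and 0.818 FPKM in DMSO (log2 change 0.90). It passed the filter only through tunicamycin libraries, so its rise is a description and supports no count. The other member that rose was Fbn1, by a small step (log2 change 0.13 with SE 0.04, adjusted p = 0.00928), and its groups overlapped.

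In the CRISPRa system Thbs1, Nid1, Emilin1 and Fbln2 had the largest falls in tunicamycin. With control sgRNA 13 of 31 tested members fell and none rose, where 14.1% of 11218 genes fell, 24.2% rose and 38.3% were called. Thbs1 had 20.2, 19.3 and 22.9 FPKM in tunicamycin, against 50.7, 53.7 and 57.6 FPKM in DMSO (log2 change −1.34 with SE 0.12, adjusted p = 9.08e-06). Nid1 had 21.5, 19.2 and 22.6 FPKM in tunicamycin, against 43.4, 45.4 and 45.1 FPKM in DMSO (log2 change −1.05 with SE 0.12, adjusted p = 3.32e-05), and Emilin1 27.5, 27.1 and 30.7 FPKM, against 55.5, 56.8 and 55.7 FPKM (log2 change −0.96 with SE 0.065, adjusted p = 7.77e-07). In each of these 3 genes all tunicamycin libraries lay below all DMSO libraries. Fbln5 did not pass the test, with 3.07, 2.94 and 2.66 FPKM in tunicamycin and 2.74, 3.08 and 2.71 FPKM in DMSO (log2 change 0.02 with SE 0.07, adjusted p = 0.866). Over all genes the share of calls that were higher was 63.2%, and it was 48.9 to 49.7% under median-ratio or quantile scaling or with the length trend removed, where 0 members rose and 15 to 21 fell.

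In the libraries labelled Son sgRNA tunicamycin lowered 13 of 31 members and raised 1, where 26.6% of genes fell, 22.7% rose and 49.4% were called. Without library C labelled Son sgRNA in DMSO, 18 members fell and 0 rose. Thbs1 had 16.1, 17.9 and 16.9 FPKM in tunicamycin, against 45.6, 48.2 and 32.2 FPKM in DMSO (log2 change −1.24 with SE 0.12, adjusted p = 1.12e-05), and Emilin1 28.9, 28.3 and 25.3 FPKM, against 58.6, 64.3 and 58.3 FPKM (log2 change −1.11 with SE 0.065, adjusted p = 1.67e-07). The member that rose was Fbn1, with 5.52, 3.94 and 5.03 FPKM in tunicamycin, against 4.30, 3.23 and 2.59 FPKM in DMSO (log2 change 0.42 with SE 0.13, adjusted p = 0.0206). Its groups overlapped, and the call was lost without library B or C in DMSO or library A or C in tunicamycin, all labelled Son sgRNA (adjusted p = 0.0507 to 0.0851). Across the 4 arms Thbs1, Fbln2, Nid1 and Emilin1 fell each time, and the fold change of Emilin1 was of like size in each, from −1.11 in the libraries labelled Son sgRNA to −0.79 with Son siRNA.

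**Figure D2:**
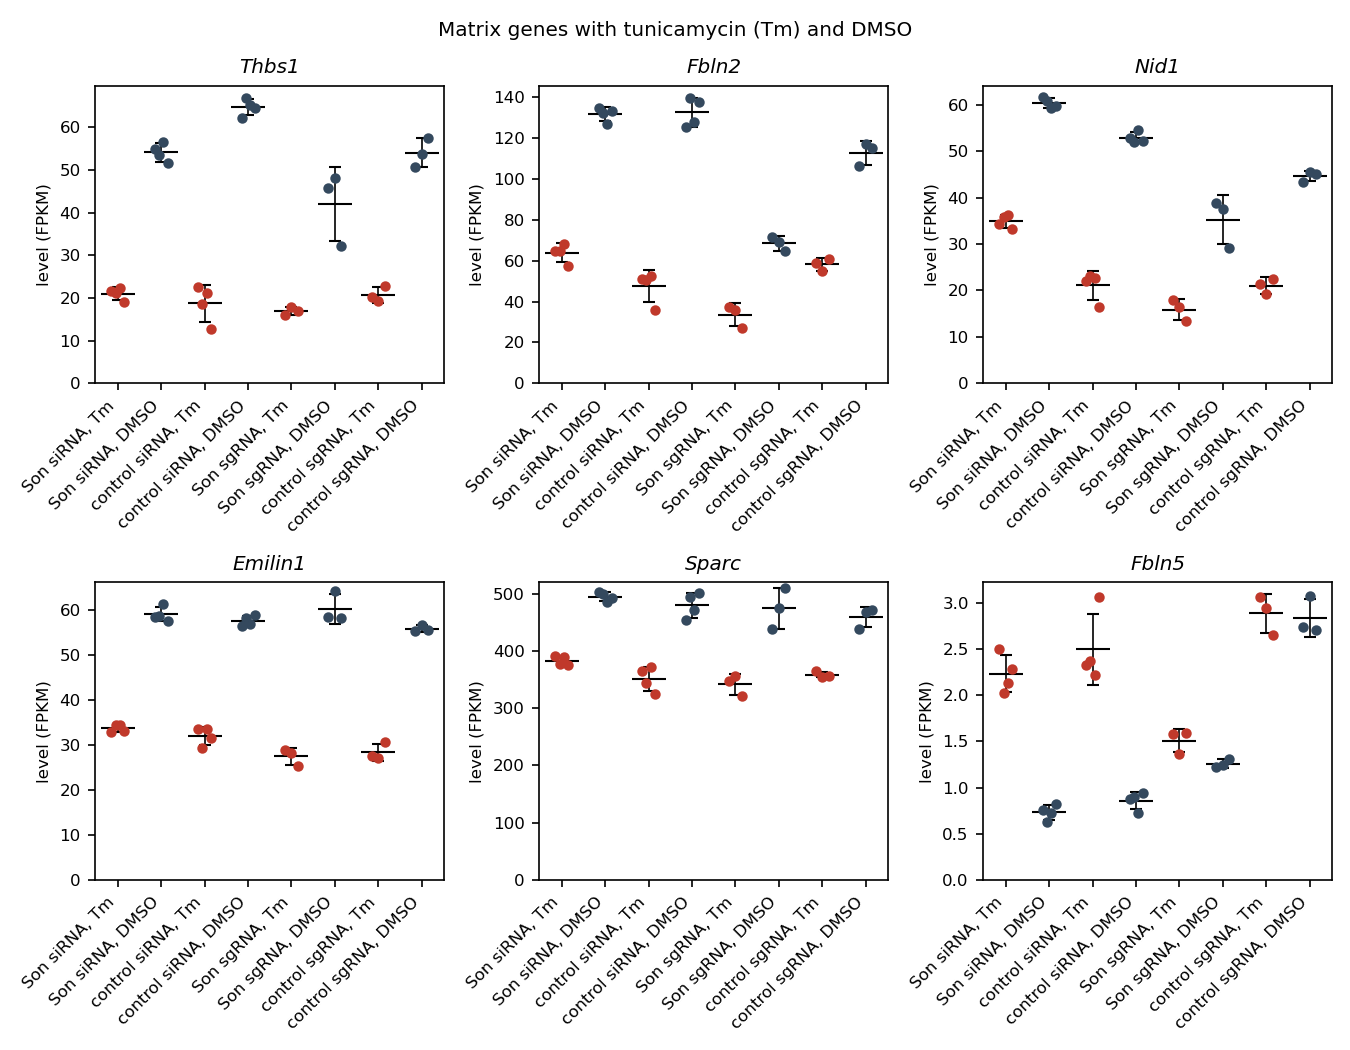
Levels in FPKM (linear axes from 0) of Thbs1, Fbln2, Nid1, Emilin1, Sparc and Fbln5 in the 8 siRNA and CRISPRa groups, with a point per library and bars for the mean and SD (n = 4 or 3). Thbs1, Fbln2, Nid1 and Emilin1 are lower in tunicamycin than in DMSO in all 4 arms, and Fbln5 is higher in tunicamycin in both siRNA arms.

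Lowering Son by siRNA moved a smaller set of members, in both directions. In DMSO 5 of 29 rose and 9 fell, where 20% of all genes rose, 16.1% fell and 36% were called, and the median log2 fold change was −0.01 over members and 0.03 over all genes. Ltbp3 (chromosome 19, 5740904 to 5758532, + strand), a latent TGF-beta binding protein, had 51.0, 53.9, 53.5 and 49.3 FPKM with Son siRNA, against 66.2, 70.5, 65.7 and 69.4 FPKM with control siRNA (log2 change −0.38 with SE 0.041, adjusted p = 2.51e-06). Hspg2, whose product perlecan is the heparan sulfate proteoglycan of basement membranes, had 34.4, 33.3, 36.2 and 31.8 FPKM with Son siRNA, against 41.0, 43.1, 45.3 and 42.4 FPKM with control siRNA (log2 change −0.33 with SE 0.057, adjusted p = 0.00029). Matn2, a filament-forming matrilin, had 23.2, 24.6, 24.8 and 23.6 FPKM with Son siRNA, against 17.5, 20.5, 19.5 and 19.4 FPKM with control siRNA (log2 change 0.31 with SE 0.042, adjusted p = 2.70e-05). None of these 3 pairs of groups overlapped, but the steps were small beside those of tunicamycin. The elastic fibre gene Efemp2 (−0.26) and Thbs3 (−0.24) fell, and Fbln1 (0.16) and Lamc1 (0.13) rose. Dcn was called higher (0.28, adjusted p = 0.0145), but not without library A of control siRNA in DMSO (0.24, adjusted p = 0.0501). The calls of Fbn1 (−0.10), Ltbp1 (−0.08) and Nid2 (0.14) were lost without any 1 of 10, 4 and 3 libraries (adjusted p up to 0.164, 0.0757 and 0.0748). That of Lama5 (−0.16) was lost without Son siRNA DMSO library D (adjusted p = 0.0599). Under quantile normalization Fbn1 and Nid2 were not called (adjusted p = 0.107 and 0.0824). Thbs1 (−0.25, adjusted p = 0.0854) and Nid1 (0.19, adjusted p = 0.0542) were not called here, but were without library D of control siRNA with tunicamycin, at −0.25 (adjusted p = 0.00151) and 0.19 (adjusted p = 0.000127), since all 4 groups share 1 estimate of the spread.

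In tunicamycin Son siRNA raised 10 of 29 members and lowered 7, where 30.6% of genes rose, 20.4% fell and 51% were called. Ltbp3 had 39.5, 42.5, 44.1 and 38.6 FPKM with Son siRNA, against 58.2, 58.9, 61.9 and 59.3 FPKM with control siRNA (log2 change −0.52 with SE 0.041, adjusted p = 3.60e-08). Nid1 had 34.3, 35.9, 36.2 and 33.2 FPKM with Son siRNA, against 21.9, 23.2, 22.8 and 16.4 FPKM with control siRNA (log2 change 0.71 with SE 0.073, adjusted p = 6.71e-07), and the laminin gamma chain Lamc1 72.6, 73.4, 72.9 and 72.4 FPKM, against 57.7, 58.3, 59.4 and 55.9 FPKM (log2 change 0.33 with SE 0.027, adjusted p = 5.83e-08). Fbln2 (0.43) and Dcn (0.33) rose, and Thbs3 (−0.27) and Hspg2 (−0.25) fell. Of the basement membrane genes 4 of 7 were called higher and 3 lower. The calls of Nid2 (0.12) and Lama5 (−0.12) among them were lost in 5 and 3 other settings (adjusted p = 0.0534 to 0.115 and 0.0575 to 0.0916) and without any 1 of 9 and 4 libraries (adjusted p up to 0.127 and 0.146). The fall of Ltbp3 was thus seen in both DMSO and tunicamycin, and without library D of control siRNA with tunicamycin the rises were 0.60 for Nid1 (adjusted p = 2.06e-09), 0.30 for Fbln2 (adjusted p = 0.000122) and 0.24 for Dcn (adjusted p = 0.00707). The balance of the laminin beta chains was higher, with Lamb1 over Lamb2 at 0.515 ± 0.0228 with Son siRNA and 0.378 ± 0.0324 with control siRNA in tunicamycin (SD, n = 4 each). The groups did not overlap, and library D of control siRNA was the lowest at 0.332, with the others at 0.380 to 0.401.

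The responses to tunicamycin were set against each other as interaction terms. Among siRNA libraries 2 members were called and both were basement membrane genes, where 0.827% of all genes were called higher, 0.855% lower and 1.68% were called in all. Of all calls 49.2% were higher, and 38.1% under median-ratio scaling, where again 2 members were higher and 0 lower. Nid1 fell by less with Son siRNA than with control siRNA (difference 0.53, SE 0.10, adjusted p = 0.0251), and so did Lamc1 (0.20, SE 0.04, adjusted p = 0.0231). The call of Nid1 was lost without any 1 of Son siRNA DMSO libraries B to D or control siRNA DMSO libraries A and C (adjusted p = 0.0509 to 0.0621) and with no filter on low values (adjusted p = 0.0600). That of Lamc1 was lost without Son siRNA DMSO library B (0.20, adjusted p = 0.0610). Without library D of control siRNA with tunicamycin the differences were 0.42 (adjusted p = 0.000314) and 0.19 (adjusted p = 0.0176). Fbln2 (0.44, adjusted p = 0.0765) and Thbs1 (0.44, adjusted p = 0.149) did not pass. Without library D the elastic fibre gene Fbln2 passed as well (0.31, adjusted p = 0.0302), and the difference of Thbs1 was 0.27 (adjusted p = 0.0814). Library D was picked out partly by its low Fbln2 value, so the call of Fbln2 gained without it is no support. Among CRISPRa libraries 0 members and 0 of 11218 genes were called by limma. At an unadjusted p under 0.05 there were 908 genes, of which 1, the TGF-beta-induced adhesive protein Tgfbi, was a member.

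In DMSO libraries labelled Son sgRNA, 15 of 31 tested members fell and none rose, where 5.29% of all genes fell, 9.11% rose and 14.4% were called. The median log2 fold change was −0.37 over the members and 0.05 over all genes. By role, 6 of 10 fibrillin and microfibril genes, 3 of 9 adhesive glycoproteins, all 4 tested proteoglycans (Vcan, Ogn, Dcn and Bgn) and 2 of 8 basement membrane genes fell. In tunicamycin 15 of 31 fell again and none rose, where 6.86% of genes fell, 2.59% rose and 9.45% were called. Over all genes the share of calls that were higher in DMSO was 63.3%, and it was 45.2% under median-ratio scaling and 47.4% once the length trend was removed. The split of members was then 0 higher and 16 lower, and 1 higher and 20 lower. In tunicamycin it was 27.4% of all calls, and 41.95 to 50.6% under these settings and quantile normalization, where 0 to 1 members rose and 13 to 16 fell.

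The largest fall was that of thrombospondin 2 (Thbs2; chromosome 17, 14665500 to 14694235, − strand), a matricellular protein that affects collagen fibril assembly. It had 3.90, 3.83 and 3.20 FPKM in DMSO libraries labelled Son sgRNA, against 11.8, 14.2 and 13.1 FPKM with control sgRNA (log2 change −1.60 with SE 0.084, adjusted p = 6.81e-07). With tunicamycin present, it had 3.26, 3.29 and 2.78 FPKM, against 10.7, 10.02 and 11.1 FPKM (log2 change −1.50 with SE 0.084, adjusted p = 1.03e-06). The highest library labelled Son sgRNA was thus far below the lowest control library in both DMSO and tunicamycin. Lama4 (chromosome 10, 38965515 to 39110188, + strand), a laminin alpha chain of mesenchymal and vascular basement membranes, had 1.40, 1.29 and 1.07 FPKM, against 4.01, 4.44 and 4.03 FPKM, in DMSO (log2 change −1.20 with SE 0.096, adjusted p = 1.69e-05). Ltbp2, a microfibril-bound protein of the latent TGF-beta binding family, had 1.26, 1.25 and 1.09 FPKM, against 3.68, 4.05 and 3.87 FPKM (log2 change −1.14 with SE 0.072, adjusted p = 2.32e-06). These low-level genes fell by like steps in tunicamycin (−1.17 and −1.05).

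Versican (Vcan; chromosome 13, 89655312 to 89742509, − strand), a large hyaluronan-binding proteoglycan, had 2.99, 2.19 and 2.17 FPKM in DMSO libraries labelled Son sgRNA, against 5.97, 6.36 and 6.69 FPKM with control sgRNA (log2 change −1.10 with SE 0.13, adjusted p = 0.000229). Fbn1 had 4.30, 3.23 and 2.59 FPKM, against 7.28, 7.69 and 8.54 FPKM (log2 change −1.03 with SE 0.13, adjusted p = 0.000506), and Ogn 13.7, 16.2 and 13.5 FPKM, against 27.5, 26.8 and 27.2 FPKM (log2 change −0.87 with SE 0.073, adjusted p = 2.24e-05). No library labelled Son sgRNA reached a control library for any of the 3. Tnc (−0.78), Fbln5 (−0.76), Fbln2 (−0.71), Dcn (−0.53), Fbln1 (−0.52), Nid2 (−0.42) and Ltbp4 (−0.33) fell as well. With only these groups fitted, the calls of Nid2 and Ltbp4 were lost (adjusted p = 0.0556 and 0.0575). The calls of Bgn (−0.39) and Matn2 (−0.27) were lost without 1 control library in DMSO, A or B for Bgn (adjusted p = 0.0545 and 0.0547) and B for Matn2 (adjusted p = 0.0705).

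Fn1, Sparc and Hspg2 were not called. Fn1 had 297, 241 and 197 FPKM in DMSO libraries labelled Son sgRNA, against 296, 334 and 346 FPKM with control sgRNA (log2 change −0.42 with SE 0.15, adjusted p = 0.0727), and Sparc averaged 474 ± 35.8 and 459 ± 17.4 FPKM (log2 change 0.04 with SE 0.073, adjusted p = 0.694). Hspg2 had 42.8, 28.8 and 20.2 FPKM, against 39.9, 42.6 and 46.4 FPKM (log2 change −0.54 with SE 0.21, adjusted p = 0.105). Fn1 was called lower without library A labelled Son sgRNA in DMSO (−0.57) and with the length trend removed (−0.29). Library C was the lowest of its group for Son, Fn1 and Hspg2. Without it 16 members fell and none rose, and Thbs2 (−1.60 with it) stood at −1.53, Vcan at −1.04 and Fbn1 at −0.90. Fmod, which encodes the collagen-binding fibromodulin and was below the filter here, had 0.794, 0.721 and 0.726 FPKM in DMSO libraries labelled Son sgRNA, against 0.0264, 0.0313 and 0.0196 FPKM with control sgRNA, so it did not share the direction of the other proteoglycans. The members' summed level made up 0.321 to 0.413% of all FPKM in DMSO libraries labelled Son sgRNA and 0.433 to 0.469% with control sgRNA. The lowest share was that of library C labelled Son sgRNA. Its values of all genes summed to 499056 FPKM, against 407969 and 424442 FPKM in libraries A and B, with shares of 0.413 and 0.390%. Summed fibroblast markers ran from 1773 to 2155 FPKM in the libraries labelled Son sgRNA and from 1891 to 2007 FPKM with control sgRNA in DMSO. Of 8 tested markers 3 fell and 1 rose, and their part in the fall of the matrix genes was not tested.

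**Figure D3:**
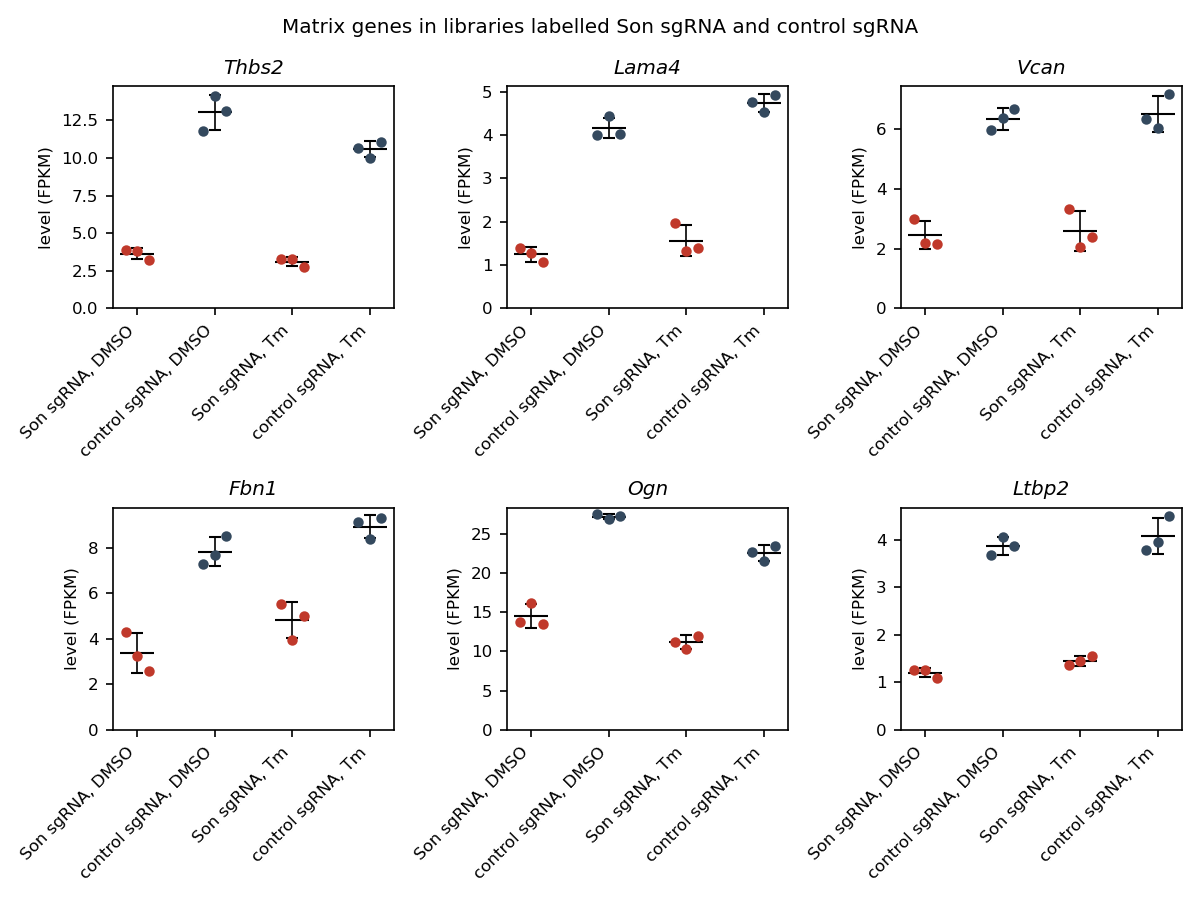
Levels in FPKM (linear axes from 0) of Thbs2, Lama4, Vcan, Fbn1, Ogn and Ltbp2 in the 4 CRISPRa groups, with a point per library and bars for the mean and SD (n = 3). In each treatment the libraries labelled Son sgRNA lie below all control sgRNA libraries for these 6 genes.

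To show the DNA at the start of members that fell together in these libraries, the 250 bases before the RefSeq start are printed for 5 of them whose windows hold no annotated exon (RefSeq, GRCm38.p6, 5′ to 3′ on the gene's strand). Capitals mark a match, on either strand, to the TATA box letters TATAAA or to the SMAD element CAGACA or to the TEAD element GGAATG, so a match on the other strand is printed as its reverse complement. The windows are those of Thbs2 (chr17:14694263-14694512, − strand), Vcan (chr13:89742513-89742762, − strand), Ogn (chr13:49607765-49608014, + strand), Tnc (chr4:64047016-64047265, − strand) and Fbln5 (chr12:101819120-101819369, − strand).
Thbs2: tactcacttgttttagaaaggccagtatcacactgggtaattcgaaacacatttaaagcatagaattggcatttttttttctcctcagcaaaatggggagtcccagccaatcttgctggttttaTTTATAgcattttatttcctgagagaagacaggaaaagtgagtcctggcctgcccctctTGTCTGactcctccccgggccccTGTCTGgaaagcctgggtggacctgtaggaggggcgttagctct
Vcan: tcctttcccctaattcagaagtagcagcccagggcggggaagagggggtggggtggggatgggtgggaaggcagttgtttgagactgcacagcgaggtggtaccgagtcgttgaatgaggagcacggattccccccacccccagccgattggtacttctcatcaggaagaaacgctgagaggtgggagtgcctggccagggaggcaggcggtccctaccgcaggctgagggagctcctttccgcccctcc
Ogn: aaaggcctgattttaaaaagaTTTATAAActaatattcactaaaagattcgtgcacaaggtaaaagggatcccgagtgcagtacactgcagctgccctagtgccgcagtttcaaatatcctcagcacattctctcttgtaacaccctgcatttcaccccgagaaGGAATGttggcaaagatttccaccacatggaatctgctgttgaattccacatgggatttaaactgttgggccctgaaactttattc
Tnc: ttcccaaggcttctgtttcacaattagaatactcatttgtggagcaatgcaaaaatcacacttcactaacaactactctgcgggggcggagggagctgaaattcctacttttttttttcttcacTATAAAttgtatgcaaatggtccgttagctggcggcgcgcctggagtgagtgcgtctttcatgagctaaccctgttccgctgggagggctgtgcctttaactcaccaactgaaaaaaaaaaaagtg
Fbln5: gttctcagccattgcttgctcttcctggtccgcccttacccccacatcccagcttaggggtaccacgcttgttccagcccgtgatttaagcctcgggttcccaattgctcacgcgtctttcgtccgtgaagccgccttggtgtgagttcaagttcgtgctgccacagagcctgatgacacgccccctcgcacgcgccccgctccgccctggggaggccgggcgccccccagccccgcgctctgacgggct
The windows of Vcan and Fbln5 are rich in G and C (62.4 and 65.2%) and the printed 250 bases hold none of the motifs searched, while those of Thbs2, Ogn and Tnc hold 46.8, 42 and 44.8% G and C and a TATAAA each. Thbs2 holds CAGACA at 2 places, and Ogn holds 1 GGAATG and a pair of overlapping TATAAA matches, 1 on each strand. The TATAAA matches begin 126 bases before the RefSeq start in Thbs2 and in Tnc, and 229 and 227 bases before it in Ogn. Whether any of them works as a TATA box was not tested. Only the 250 bases before the start were searched. Over the 39 windows found for 29 of the 42 members TATAAA was in 15.4%, against 12.4% of all 32851 promoter windows. CAGACA was in 28.2% of member windows, against 17.1% of all, and GGAATG in 7.69%, against 12.6%. TGANTCA, the AP-1 site, was in 5.13% of member windows, against 6.75% of all, and TGATGNAA, a C/EBP-ATF site, in 5.13%, against 3.45%. Both strands were searched, and a gene such as Fbln5 or Tnc has 2 windows, so its matches in these shares can lie outside the printed bases. The 5 printed windows thus differ in base content and in the motifs they hold, and a match is only a description of the letters.

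The drugs moved nearly all tested members. All 4 comparisons share the 3 DMSO libraries, so their values are given side by side and no overlap between them is tested. With nintedanib 16 of 34 members were called higher and 13 lower, and 13 of 31 and 13 without Fmod, Mfap5 and Lama4, which passed the filter through the kinase inhibitor libraries and were left out after their values were seen, where 34.3% of 12132 genes rose, 22.1% fell and 56.4% were called. With ponatinib 16 were called higher and 14 lower, and 14 and 13 without the same 3 genes, where 41.1% rose, 21.4% fell and 62.5% were called. With proflavine 8 rose and 22 fell, where 27.8% rose, 42.4% fell and 70.1% were called. With pyrvinium 5 rose and 26 fell, where 36.6% rose, 40.8% fell and 77.3% were called. The counts with proflavine and pyrvinium keep the 3 genes. The median log2 fold change over members was 0.06, 0.04, −0.42 and −0.65 in this order of drugs, and over all genes 0.04, 0.10, −0.09 and −0.03. Without the 3 genes the members' median was −0.05 with nintedanib and 0.03 with ponatinib. For the kinase inhibitors the higher share of all calls depended on the scaling, at 60.8% for nintedanib and 65.8% for ponatinib, but 41.1 to 47.6% and 47.7 to 49.5% under the other scalings or with the length trend removed. All 34 members then split as 11 to 15 higher and 13 to 16 lower with nintedanib, and as 12 to 13 higher and 15 to 16 lower with ponatinib. These settings moved the median of all genes by up to −0.11. For proflavine 39.6% of all calls were higher, and 50.5% with the length trend removed, where 10 members rose and 20 fell.

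Pyrvinium lowered 9 of 10 adhesive glycoproteins, 9 of 11 elastic fibre genes, 5 of 5 proteoglycans and 3 of 8 basement membrane genes, where 40.8% of all genes fell. Fmod, Mfap5 and Lama4, which passed the filter through the kinase inhibitor libraries, are among those that fell. The call of Lama4 (−0.26) was lost without any 1 of 8 libraries (adjusted p = 0.0501 to 0.192) and in 3 other settings (adjusted p = 0.0560 to 0.960). Tgfbi (chromosome 13, 56609523 to 56639562, + strand), which binds integrins and collagens, had 9.77, 8.62 and 8.79 TPM with pyrvinium, against 163, 165 and 172 TPM in DMSO (log2 change −4.06 with SE 0.053, adjusted p = 6.89e-17). Thbs1 had 17.8, 17.3 and 20.9 TPM with pyrvinium, against 151, 139 and 137 TPM in DMSO (log2 change −2.87 with SE 0.075, adjusted p = 5.34e-14). Emilin1 had 41.6, 43.5 and 25.9 TPM with pyrvinium, against 195, 202 and 197 TPM (log2 change −2.42 with SE 0.13, adjusted p = 1.14e-10). All pyrvinium libraries were far below all DMSO libraries for these genes, and pyrvinium library 3 was the lowest for Emilin1. Fibrillin 2 (Fbn2), the fibrillin of developing tissue, had 1.43, 1.39 and 1.31 TPM with pyrvinium, against 19.9, 20.9 and 21.7 TPM in DMSO (log2 change −3.20 with SE 0.089, adjusted p = 1.06e-13). Thbs2 (−2.42), Spon2 (−2.53), Vcan (−2.27), Sparc (−1.69) and Tnc (−1.64) fell too, Sparc to 529.9, 475 and 532 TPM with pyrvinium, against 1579, 1642 and 1759 TPM in DMSO.

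Fn1 was the exception among the adhesive genes, with 793, 849 and 794 TPM with pyrvinium and 793, 762 and 799 TPM in DMSO, and the groups overlapped (log2 change 0.05 with SE 0.066, adjusted p = 0.503). Fbln5 and Ltbp4, which work together in elastic fibre assembly, rose. Fbln5 had 33.4, 33.0 and 29.5 TPM with pyrvinium, against 7.03, 7.17 and 7.35 TPM in DMSO (log2 change 2.01 with SE 0.069, adjusted p = 9.31e-13), and Ltbp4 24.5, 25.0 and 25.3 TPM, against 8.39, 7.86 and 8.09 TPM (log2 change 1.51 with SE 0.083, adjusted p = 2.21e-10). Both lay above every DMSO library. Of the other members called higher, Lamb1 rose (0.48), while the call of Lama5 (0.22) was lost without DMSO library 3 or pyrvinium library 1 or 2 (adjusted p = 0.0632 to 0.0642). That of Lamc1 (0.20) was lost without any 1 of the DMSO libraries or without pyrvinium library 1 or 3 (adjusted p = 0.0513 to 0.0729). The members' summed level was 0.334 to 0.345% of all TPM with pyrvinium, against 0.556 to 0.577% in DMSO. Fibroblast markers fell in the same libraries, 9 of 9 tested, with sums of 1008 to 1171 TPM with pyrvinium and 6323 to 6486 TPM in DMSO, and their part in the result was not tested.

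Proflavine lowered 8 of 10 adhesive and 8 of 11 elastic fibre genes, and raised a laminin chain, where 42.4% of all genes fell and 27.8% rose. The adhesive calls include Fn1 (−0.21), whose call was lost once libraries were scaled by median ratios (−0.12, adjusted p = 0.0851) or the length trend was removed (−0.10, adjusted p = 0.0821). Fbn2 had 1.44, 1.56 and 1.21 TPM with proflavine, against 19.9, 20.9 and 21.7 TPM in DMSO (log2 change −3.19 with SE 0.089, adjusted p = 8.26e-13), and Ogn 12.8, 14.8 and 15.6 TPM, against 83.6, 91.2 and 96.6 TPM (log2 change −2.57 with SE 0.077, adjusted p = 1.43e-12). Spon2, a secreted glycoprotein of the spondin family, had 0.135, 0.0983 and 0 TPM with proflavine, against 5.50, 5.94 and 6.93 TPM in DMSO (log2 change −2.72 with SE 0.099, adjusted p = 7.05e-12). Tgfbi (−2.08), Matn2 (−1.96), Emilin1 (−1.65) and Sparc (−1.07) also fell. Lamb1 (chromosome 12, 31265234 to 31329644, + strand), the embryonic laminin beta chain, rose, with 108, 93.0 and 93.5 TPM with proflavine, against 27.9, 27.4 and 27.0 TPM in DMSO (log2 change 1.80 with SE 0.062, adjusted p = 4.62e-12). The other beta chain, Lamb2 (chromosome 9, 108479736 to 108490530, + strand), fell, with 81.7, 77.8 and 74.3 TPM, against 145, 150.3 and 153 TPM (log2 change −0.93 with SE 0.055, adjusted p = 9.77e-10).

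The beta chains thus exchanged places. Lamb1 over Lamb2 was 1.26 ± 0.0627 with proflavine, against 0.183 ± 0.00823 in DMSO (SD, n = 3 each). It was 0.106 ± 0.00575 with nintedanib, 0.0637 ± 0.000856 with ponatinib and 0.313 ± 0.0411 with pyrvinium. The lowest library with proflavine, at 1.20, was above the highest of any other drug group, 0.360 with pyrvinium. Fbln2 had 463, 432 and 416 TPM with proflavine, against 319.8, 305 and 314 TPM in DMSO, so it rose (log2 change 0.48 with SE 0.054, adjusted p = 1.37e-06) where Fbln5 fell (−0.58). Fbln5 over Fbln2 was 0.0102 ± 0.000513 with proflavine, 0.137 ± 0.0202 with pyrvinium and 0.0230 ± 0.000863 in DMSO. Bgn (0.36), Vcan (0.29), Tnc (0.45), Dcn (0.51), Ecm1 (0.19) and Nid1 (0.36) were also higher with proflavine. Thbs1 passed the test (−0.22, adjusted p = 0.0194), but not without DMSO library 1 or proflavine library 3 (adjusted p = 0.0685 and 0.0854), nor under 3 other settings of scale and length (adjusted p = 0.0903 to 0.304). Of 9 fibroblast markers 7 fell and 1 rose with proflavine, with sums of 4312 to 4416 TPM.

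**Figure D4:**
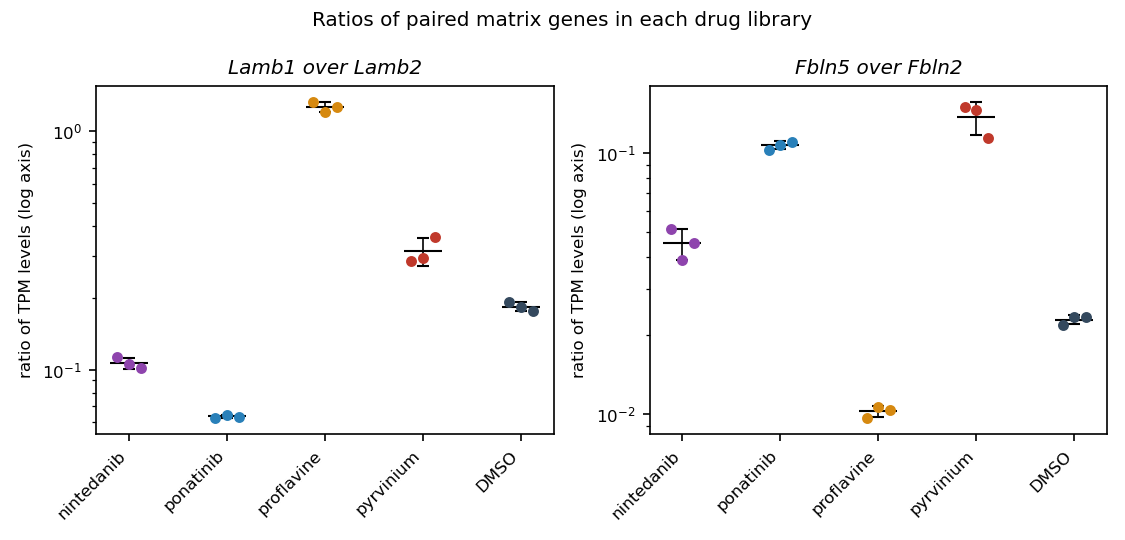
Ratios of per-length levels in the 15 drug libraries on log axes, Lamb1 over Lamb2 and Fbln5 over Fbln2, with a point per library and bars for the mean and SD (n = 3). Lamb1 over Lamb2 is above 1 in the 3 proflavine libraries and below it in the other 12.

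The kinase inhibitors split the proteoglycans and the matricellular genes. Dcn, the decorin gene, had 6.34, 7.35 and 5.53 TPM with nintedanib and 2.96, 2.83 and 2.14 TPM with ponatinib, against 1.39, 0.939 and 1.01 TPM in DMSO (1.81 and 0.79). Fmod had 1.16, 1.17 and 1.56 TPM with nintedanib and 6.95, 7.18 and 7.24 TPM with ponatinib, against 0.465, 0.437 and 0.547 TPM in DMSO (0.63 and 2.45). Dcn rose with both drugs from a low level, and Fmod stood above its DMSO libraries with both. Ogn fell with nintedanib and rose with ponatinib, with 49.4, 49.8 and 51.7 TPM with nintedanib and 205, 204 and 215 TPM with ponatinib, against 83.6, 91.2 and 96.6 TPM in DMSO (−0.83 and 1.19). Tnc did the reverse, with 105, 124 and 109 TPM with nintedanib and 22.2, 20.5 and 24.7 TPM with ponatinib, against 74.1, 69.6 and 70.3 TPM in DMSO (0.65 and −1.63). For neither gene did the 3 groups overlap. Vcan had 8.74, 10.6 and 9.35 TPM with nintedanib and 6.04, 6.09 and 6.62 TPM with ponatinib, against 20.2, 19.5 and 20.7 TPM in DMSO, and fell with both (−1.003 and −1.54). The doses of these drugs differ, so no difference between them was tested.

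Of the elastic fibre genes Ltbp1 fell with both inhibitors, with 64.5, 68.6 and 64.2 TPM with nintedanib and 51.9, 50.01 and 54.2 TPM with ponatinib, against 111, 106 and 108 TPM in DMSO (−0.71 and −1.05). Fbn1 fell by about the same step with each (−0.58 and −0.58), as did Fbln2 (−0.57 and −0.54) and Fn1 (−0.48 and −0.57). Fbln5 rose, most with ponatinib, with 10.3, 8.42 and 9.55 TPM with nintedanib and 22.7, 22.6 and 24.0 TPM with ponatinib (0.35 and 1.56). Its call with nintedanib was lost under quantile normalization (0.17, adjusted p = 0.0569). The nintedanib calls of Ltbp4 (0.26) and of the adhesive gene Matn2 (0.14) were lost in 2 and 6 other settings. They were also lost without any 1 of 3 and 8 libraries. Emilin1 had 118, 125 and 119.9 TPM with nintedanib, against 195, 202 and 197 TPM in DMSO (−0.71), and 207, 208 and 203 TPM with ponatinib, where it was not called (0.05, adjusted p = 0.728). The microfibril gene Mfap5 stood above DMSO with nintedanib (0.91) and fell with ponatinib (−0.73). Elastin, below the filter, had 1.05, 1.12 and 1.46 TPM with nintedanib and 1.004, 0.962 and 0.866 TPM with ponatinib, against 0.118, 0.146 and 0.146 TPM in DMSO, and 0.0428 and 0.103 TPM on average with proflavine and pyrvinium. Ltbp2, also below it, averaged 1.44, 0.522, 2.01 and 0.373 TPM with nintedanib, ponatinib, proflavine and pyrvinium, against 0.269 TPM in DMSO.

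Without Lama4, 5 of 7 basement membrane genes rose with nintedanib and 4 of 7 with ponatinib, where 34.3% and 41.1% of all genes rose, while 1 and 2 fell. Of those that rose with nintedanib, Nid2 (0.25) lost its call without DMSO library 1 or nintedanib library 3, under quantile normalization and with only these groups fitted (adjusted p = 0.0526 to 0.0746). Lama4 (0.44 and 0.32) lost its call with nintedanib under quantile normalization (adjusted p = 0.0534), and with ponatinib there, with the length trend removed and without DMSO library 1 or 2 or ponatinib library 1 or 3 (adjusted p = 0.0572 to 0.131). Nid2 had 36.6, 35.9 and 37.1 TPM with ponatinib, against 14.8, 15.8 and 17.3 TPM in DMSO (log2 change 1.15 with SE 0.079, adjusted p = 9.66e-09), and Lamb2 254, 257 and 257 TPM, against 145, 150.3 and 153 TPM (log2 change 0.77 with SE 0.055, adjusted p = 1.43e-08). Lamb2 was also above its DMSO libraries with nintedanib, at 209, 244 and 235 TPM (log2 change 0.61 with SE 0.055, adjusted p = 2.01e-07). The nidogens parted with ponatinib, where Nid1 fell (−0.32) as Nid2 rose. Lamb1 fell with ponatinib (−0.72), and its call with nintedanib (−0.17) was lost without any 1 of the DMSO libraries or without nintedanib library 1 or 3 (adjusted p = 0.0541 to 0.0937). Endothelial marker sums ran from 7.90 to 9.86 TPM with nintedanib and from 3.36 to 4.38 TPM with ponatinib, most of it Erg, and from 2.65 to 2.91 TPM in DMSO. Lyz2, of the macrophage list, averaged 3.12 TPM with nintedanib, 2.06 TPM with ponatinib and 0.310 TPM in DMSO, and Des, of the muscle list, 4.14, 3.02 and 2.09 TPM. Erg and Des were called higher with both drugs. Lyz2, at 0.156 TPM with pyrvinium, reached the filter through the kinase inhibitor libraries, so its rise is a description only. Fcer1g, of the same list, went the other way, at 0.447 TPM with nintedanib, 0.267 TPM with ponatinib and 0.658 TPM in DMSO. Fibroblast marker sums ran from 5774 to 5934 TPM with nintedanib, from 4466 to 4672 TPM with ponatinib and from 6323 to 6486 TPM in DMSO. The part of such cells in the basement membrane result was not tested.

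**Figure D5:**
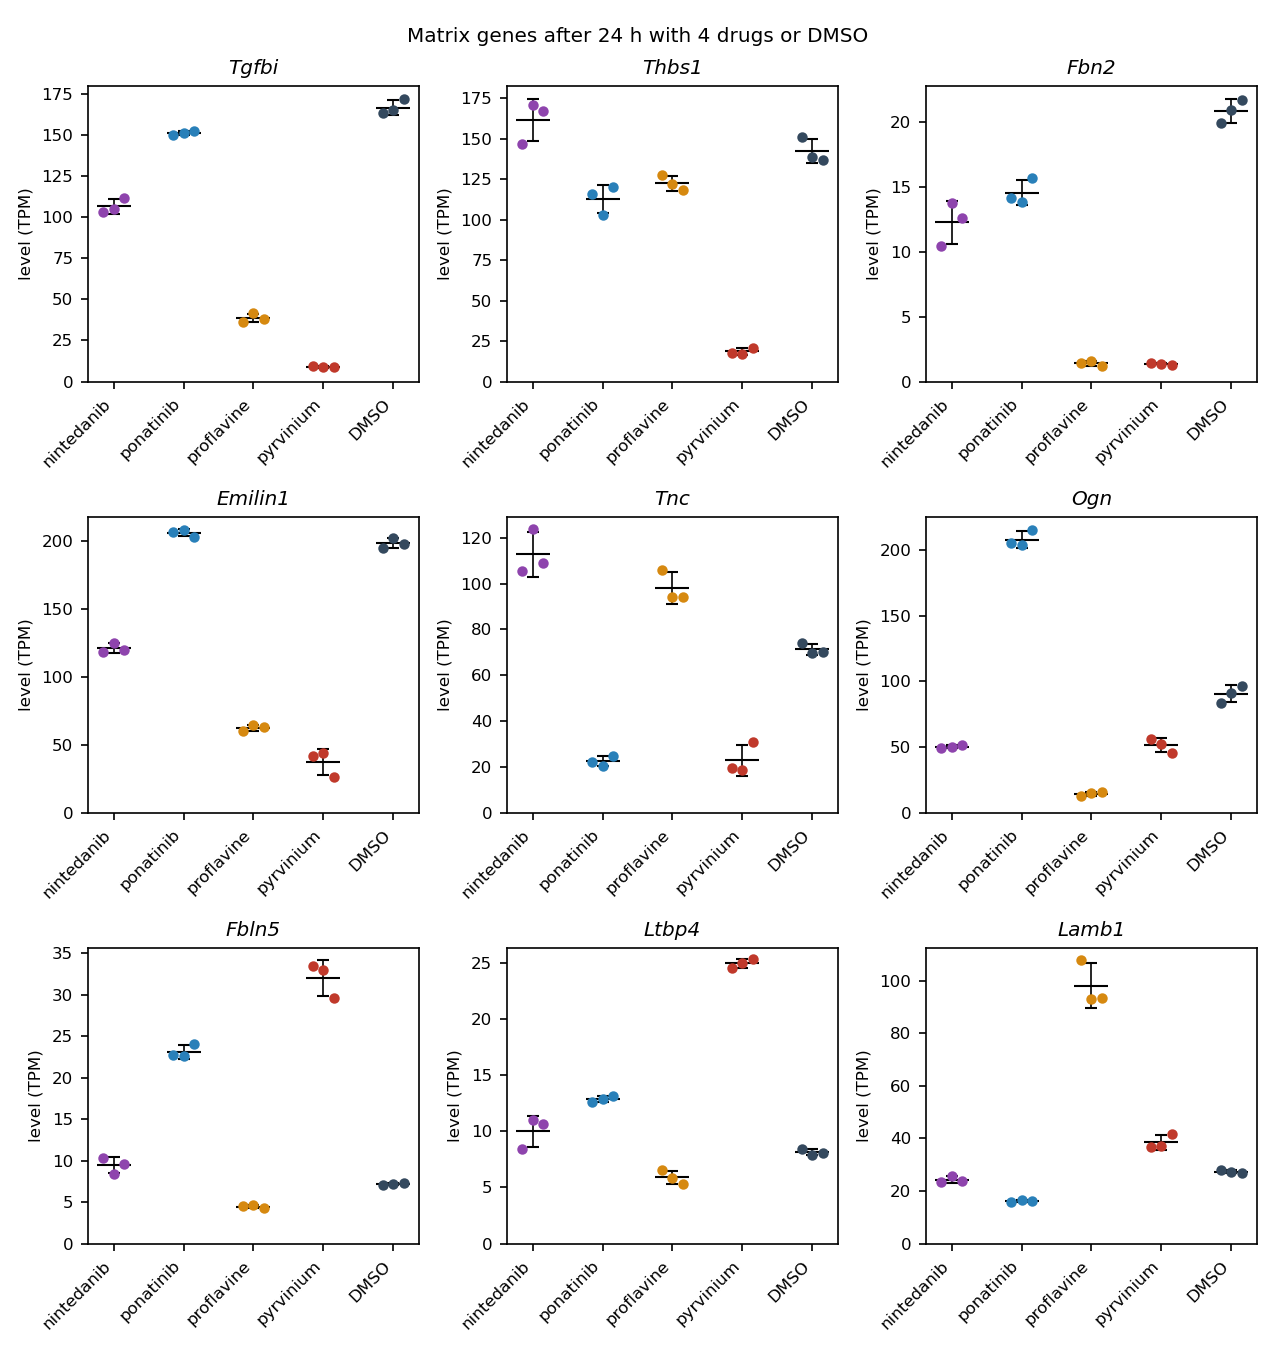
Levels in TPM (linear axes from 0) of Tgfbi, Thbs1, Fbn2, Emilin1, Tnc, Ogn, Fbln5, Ltbp4 and Lamb1 in the drug groups, with DMSO last, a point per library and bars for the mean and SD (n = 3). Tgfbi, Thbs1 and Emilin1 are lowest with pyrvinium, Ogn is highest with ponatinib, Fbln5 and Ltbp4 are highest with pyrvinium and Lamb1 is highest with proflavine.

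Genes that receive, sulfate, cleave or answer to this matrix were read from 4 further lists. Of matrix receptors (integrins, syndecans, dystroglycan, CD44 and discoidin receptors), tunicamycin lowered 17 of 20 with control siRNA and raised 2, where 42.4% of all genes fell and 26.6% rose. With control sgRNA it lowered 12 of 18 and raised 1, where 14.1% fell and 24.2% rose. The laminin receptor chain Itga3 fell to a mean of 16.5 FPKM in tunicamycin with control siRNA, against 33.7 FPKM in DMSO (log2 fold change −0.99, adjusted p = 4.30e-09). Pyrvinium lowered 18 of 20 and raised 2, where 40.8% of all genes fell and 36.6% rose. It left dystroglycan (Dag1) at 74.3 TPM, against 185.8 TPM in DMSO (−1.32). Nintedanib raised 12 of 20 and lowered 1, where 34.3% of all genes rose and 22.1% fell. With it the laminin receptor chains Itga7 and Itga6 had 62.9 and 15.5 TPM, against 18.8 and 6.47 TPM in DMSO (1.69 and 1.14). Son siRNA lowered 6 of 20 and raised 1 in DMSO, where 16.1% of all genes fell and 20% rose. The libraries labelled Son sgRNA had 3 of 18 lower and none higher, where 5.29% of all genes fell in DMSO and 9.11% rose.

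Of the glycosaminoglycan synthesis genes, which build the sugar chains of proteoglycans, 20 of 29 fell and 3 rose in tunicamycin with control siRNA. Among all genes 42.4% fell and 26.6% rose there. Glce, the epimerase of heparan sulfate synthesis, rose to a mean of 28.7 FPKM in tunicamycin, against 12.6 FPKM in DMSO (1.12), and it rose in the other 3 arms (0.87 to 1.06). Son siRNA raised the chondroitin polymerizing factor Chpf2 to 26.3 FPKM in DMSO, against 17.7 FPKM with control siRNA (0.55, adjusted p = 7.97e-09), and lowered B3gat3, an enzyme of the linker that joins the chains to protein, to 17.0 FPKM, against 22.5 FPKM (−0.39). Pyrvinium lowered 23 of 30 of these genes and raised 2, where 40.8% of all genes fell and 36.6% rose. The hyaluronan synthases answered to the drugs in different ways. Has1 averaged 9.16 TPM with proflavine (2.42) and 3.67 TPM with nintedanib (1.29), against 0.898 TPM in DMSO, and Has2 averaged 4.82 TPM with proflavine (0.98) and 0.206 TPM with ponatinib (−1.29), against 1.97 TPM in DMSO.

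Of the TGF-beta signalling genes 12 of 18 fell and 5 rose in tunicamycin with control siRNA, where 42.4% of all genes fell and 26.6% rose. The target gene Ctgf had 8.82 FPKM in tunicamycin, against 29.99 FPKM in DMSO (−1.68). Son siRNA raised 10 of 18 in tunicamycin and lowered 1, where 30.6% of all genes rose and 20.4% fell. In the libraries labelled Son sgRNA 4 of 19 fell in each treatment and none rose, where 5.29% of all genes fell in DMSO and 6.86% in tunicamycin. The feedback inhibitor Pmepa1 had 10.8 FPKM in DMSO libraries labelled Son sgRNA, against 18.5 FPKM with control sgRNA (−0.73). Pyrvinium lowered the ligand Tgfb2 to 2.46 TPM, against 22.0 TPM in DMSO (−2.73), and nintedanib raised Tgfb1 to 171.9 TPM, against 80.1 TPM in DMSO (1.09). Of the ADAMTS and HtrA proteases, which cleave proteoglycans and other matrix proteins, 7 of 7 fell in tunicamycin with control sgRNA and 8 of 9 with pyrvinium. Among all genes 14.1% and 40.8% fell there. Nintedanib raised Adamts7 to 17.4 TPM, against 4.89 TPM in DMSO (1.64). None of 7 was called with Son siRNA in either treatment, where 36% of all genes were called in DMSO and 51% in tunicamycin. The shares of all genes called, given above for each comparison, are the background of these counts.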

How the data were processed

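Stranded TruSeq libraries were made from polyadenylated RNA after a PureLink extraction, per the labels' protocols. The authors deposited FPKM values for 28 siRNA and CRISPRa libraries and TPM values for 15 drug libraries. The submitters' processing notes name mm10, Trimmomatic, Trim Galore, HISAT2, Salmon and Cufflinks. Roles, versions and gene models for these tools are unknown here. Scaling to a fixed total makes values relative, so a large change in a few genes shifts all others. FPKM columns carry a group name and a letter, and no source links letters to replicate numbers. Columns headed as scrambled were taken as control siRNA, those headed Nt as control sgRNA and those headed Son_oe as Son sgRNA.

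Of 24886 FPKM lines 27 were dates and were left out, and 275 symbols stood on 807 lines, of which the one with the highest mean was kept. Values were taken as log2(value + 1), which understates changes of low genes. Genes with a mean of at least 1 over a system's libraries were fitted with limma 3.58.1 in R 4.3.3 (a term per group, no block, eBayes with a mean trend), with two-sided tests and Benjamini-Hochberg adjustment within each of 14 comparisons, called under 0.05. The drug comparisons share their DMSO libraries, and each tunicamycin or Son comparison shares libraries with others of its system. Any member may be named. Library values are given for up to 3 called members of largest change per direction with a mean of at least 5 and for fixed representatives, and for further members chosen after their values were seen. The members and lists were chosen with earlier results of these data known. Loci are from GENCODE vM21 and promoter windows from RefSeq, both GRCm38. Scripts were tested on simulated data. Python 3.11.15, pandas 2.3.3 and matplotlib 3.10.9 made the summaries and figures. Alternatives were the pseudocount, the filter, the scaling, the samples fitted, a replicate block and leaving out each library.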

Additional observations from a re-analysis of the deposited data

Results flagged for a closer look

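Among 116 groups of 4 libraries, 4 had a library whose gap to its nearest neighbour took up an unusually large share of the range, where chance gives about 1 in 20 groups. In 3 of them it was library D of control siRNA with tunicamycin. Fbln2 was 35.9 FPKM there, against 50.7 to 52.4 FPKM in libraries A to C (gap share 0.897). Tgfbi was 75.6 FPKM, against 95.0 to 98.6 FPKM (0.847), and Lamb1 19.1 FPKM, against 22.7 to 23.3 FPKM (0.862). Vcan was 13.4 FPKM in library C of Son siRNA in DMSO, against 11.96 to 12.2 FPKM in the others (0.845).

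The tunicamycin response differed between Son siRNA and control siRNA by an interaction test in limma for Nid1 (difference 0.53 on the log2 scale, adjusted p = 0.0251) and Lamc1 (0.20, adjusted p = 0.0231). Both calls were lost without some single libraries, as given above.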

How the results depend on the processing

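Counts of called members were recomputed in 296 alternatives, and 288 stayed within 1.5 times the count given above. The exceptions were 2 comparisons. For the difference of tunicamycin responses in the siRNA system 1 member was called with no low filter, and 0 to 3 were called when 1 library was left out. For tunicamycin with control sgRNA 22 members were called when the fit held only these groups, and 21 after removal of the length trend, an alternative chosen after seeing the data. The cause was not tested.

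Leaving out 1 library at a time gave 10 to 16 called members for Son siRNA in DMSO, 14 to 18 in tunicamycin, 21 to 23 for tunicamycin with control siRNA and 18 to 22 with Son siRNA. It gave 13 to 20 for the libraries labelled Son sgRNA in DMSO and in tunicamycin, 9 to 18 for tunicamycin with control sgRNA and 11 to 18 in the libraries labelled Son sgRNA. The drugs gave 24 to 30 with nintedanib, 25 to 30 with ponatinib, 29 to 32 with proflavine and 28 to 31 with pyrvinium. One gene turned, Sparc with nintedanib, at 0.0085 under quantile normalization and −0.17 as fitted.

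Deviations of same-numbered or same-lettered libraries had correlations of −0.223 to 0.182 in the CRISPRa system. These were −0.0667 to 0.147 in the drug system and −0.189 to 0.174 in the siRNA system. Libraries of different number or letter had −0.170 to 0.261, −0.143 to 0.149 and −0.241 to 0.327, in the same order of systems. The ranges overlap, so the correlations do not single out same-numbered libraries. With so few libraries a group, this check cannot exclude that the numbers pair them. With the replicate block 16 members were called for Son siRNA in DMSO, 24 for tunicamycin with control siRNA, 15 for the libraries labelled Son sgRNA in DMSO, 26 with nintedanib and 31 with pyrvinium. Read depth is unknown, so the precision of low members such as Dcn, Fmod and Lama4 cannot be stated from counts.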
